A study of Homo sapiens with 22 samples.

Results

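The neuronal cytoskeleton and growth cone genes described here are TUBB3, MAP2, MAPT, DCX, STMN2, NEFL, NEFM, NEFH, INA and GAP43. They were chosen by symbol from the deposited count table, in which all 10 were present among 35237 gene rows, and were followed across all 6 groups of the study. The rule for membership uses the symbols only, though the symbols were chosen with earlier results of these data known. In GENCODE 29 the genes lie on chromosomes 16 (TUBB3), 2 (MAP2), 17 (MAPT), X (DCX), 8 (STMN2, NEFL and NEFM), 22 (NEFH), 10 (INA) and 3 (GAP43).

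Neurons build their processes on microtubules, which are polymers of alpha and beta tubulin, and on neurofilaments, which are intermediate filaments that set the calibre of axons. Microtubule-associated proteins stabilise or bundle the tubulin polymer, stathmins bind free tubulin and promote disassembly, and growth-associated proteins sit under the membrane of the advancing growth cone. Antibodies to several of these proteins are common markers of neuronal differentiation, and sympathetic neuroblasts, the cells from which neuroblastoma arises, also make many of them.

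RNA was measured in 22 bulk libraries of cell lines derived from human neuroblastoma, SK-N-AS and GIMEN, both of which carry the label MES, for the mesenchymal type. PP121 inhibits tyrosine kinases and phosphoinositide 3-kinases, and bufalin is a cardiac glycoside that blocks the sodium-potassium pump. Untreated SK-N-AS cells (n = 4) were grown in DMEM with 10% serum. The S1D4 group (n = 4) received 5 µM PP121 in DMEM with 1% serum for 4 days. The S2D4 and S2D30 groups (n = 4 each) were S1D4 cells moved to serum-free Neurobasal medium with B27 supplement, where 100 nM bufalin was added to 5 µM PP121, for 4 and for 30 days. Untreated GIMEN cells (n = 3) were grown in RPMI with 10% serum, and the GIMEN D30 group (n = 3) was kept for 30 days on 2.5 µM PP121 with 10 nM bufalin, in RPMI with 1% serum. Drug and serum changed together in every treated group, and in S2D4 and S2D30 the medium changed as well, so their parts cannot be told apart. No group held the serum or medium change without drug, and no untreated group is labelled with 30 days in culture. Both lines carry their own fixed genotype and each is 1 line. The labels do not say whether replicates came from separate cultures, so the p-values measure only the spread between these libraries, which may be technical.

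Libraries held 16456484 to 37506800 counts. Levels are given as CPM, counts scaled by library size in the usual unit, after trimmed-mean (TMM) scaling of all 22 libraries. Of 10 adrenergic markers, the transcription factors and enzymes of the sympathetic neuroblast, none was at the floor in untreated SK-N-AS, and their summed level was 1603 to 1844 CPM. In untreated GIMEN, markers that include HAND1, TFAP2B and TH were at the floor, here at most 3 counts in every library. The 10 mesenchymal markers summed to 284 to 343 CPM in untreated SK-N-AS and to 32250 to 34160 CPM in untreated GIMEN, with none at the floor in either. By these sums untreated SK-N-AS held more adrenergic and less mesenchymal marker RNA than untreated GIMEN, though both carry the MES label. No line of the adrenergic type was measured beside them. In untreated GIMEN HAND2, at 363 ± 10.2 CPM (SD, n = 3), made up most of an adrenergic sum of 451 to 474 CPM. The Schwann and glial markers summed to at most 9.24 CPM in any library. The 8 leukocyte markers summed to 171 to 216 CPM in untreated SK-N-AS, 78.3 to 97.5 CPM at S1D4, 101 to 158 CPM at S2D4 and 100 to 151 CPM at S2D30, with 2 to 4 of them at the floor in each group of either line. CD3E, which defines T cells, was at the floor in every SK-N-AS group. PTPRC, the pan-leukocyte antigen CD45, was not, with 177 ± 20.9 CPM in untreated SK-N-AS and 0.850 ± 0.360 CPM at S2D30 (SD, n = 4), and CD68 went from 13.2 ± 4.61 to 123 ± 27.4 CPM. S2D4 replicate 4 stood apart from its group, with an adrenergic sum of 827 CPM against 534 to 575 CPM and a mesenchymal sum of 958 CPM against 1160 to 1170 CPM in the other three. Untreated replicate 4 also stood apart for MAP2 and DCX, and results are given below with and without these libraries where they matter. Across genes, counts of S2D4 replicate 4 differed from the others of its group by a chi-square per gene of 119 to 134. Those others differed from each other by 3.95 to 6.71. Untreated replicate 4 differed from replicates 1, 2 and 3 by 124, 112 and 55.7, and the other untreated pairs by 28.5 to 56.8. In bulk RNA, fewer cells of a type and less RNA per cell cannot be told apart.

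Short promoter sequences are shown for TUBB3, the member with the highest level, and for GAP43 and DCX, which had the largest rise and the largest fall. They come from the RefSeq promoter table on GRCh38.p14, which held entries for 5 of the 10 genes (TUBB3, MAP2, INA, DCX and GAP43). The 250 bases before the start were searched on both strands for 7 motifs: the E-box CANNTG, the GC box GGGCGG, the CCAAT box, the TATA box TATAAA, the AP-1 site TGANTCA and the left (TTCAGCACC) and right (GGACAGC) parts of RE1, the element bound by REST. No motif contains another in full. Each line gives 30 bases around a match, on the gene's strand, with the match in capitals.
TUBB3, GC box, chr16:89923190-89923219: attgcgcgcggcGGGCGGggacgcgcggtg
TUBB3, GC box, chr16:89923223-89923252: agcctgcgggccGGGCGGggctctgcggcg
TUBB3, GC box, chr16:89923285-89923314: agccgatgcgaaGGGCGGggccgcggctat
TUBB3, CCAAT box, chr16:89923251-89923280: cggcgcctcccgATTGGccacccgcggtga
GAP43, E-box, chr3:115623468-115623497: agagggagcgagCATGTGcgatgagcaata
GAP43, CCAAT box, chr3:115623361-115623390: agatagatagatATTGGggggaaggagaaa
GAP43, RE1 right part, chr3:115623402-115623431: gagggaagagaGGACAGCggagagagagca
DCX, TATA box, chrX:111412365-111412394, minus strand: tttcctgttggtTATAAAtgaaacctttct

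The table holds 2 windows for TUBB3 and 3 for DCX, and the one nearest to a principal start annotated in GENCODE 29 is shown. The start is that of the RefSeq entry. In GENCODE 29 the genes begin further upstream, at 89921392 (TUBB3), 115623324 (GAP43) and 111412429 (DCX, minus strand). All matches shown therefore lie inside the genes as annotated there. The TUBB3 window was 78% G and C and held 3 GC boxes, while the GAP43 and DCX windows were 51.6% and 42.8% G and C and held no GC box. The TUBB3 and GAP43 windows each held 1 CCAAT box. The other TUBB3 window had no GC box and 1 AP-1 site, and of the other DCX windows 1 had a CCAAT box and 1 had 3 E-boxes, with no TATA box in either. Of the 35116 promoters of the same length, 42.6% held a GC box, 32% a CCAAT box, 61.8% an E-box and 10.7% a TATA box. An AP-1 site was in 6.57%, the RE1 left part in 0.288% and the right part in 4.76% of them. A match describes the letters and is not evidence of binding.

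TUBB3 counts may carry an ambiguity that its coding sequence makes visible. TUBB3 encodes the beta tubulin typical of neurons, and 31.3% of its 75-base words in the GENCODE 29 transcripts also occur in other genes, chiefly AC092143.1, TUBB2A and TUBB2B. Over 1335 coding bases, TUBB3 was 88.4% identical to TUBB2A and 88.2% to TUBB2B, and the longest identical run with each was 185 bases. Read length and the handling of reads that match several genes are not given in the sources used here. The stretch below, coding bases 1108 to 1167 of TUBB3 (chr16:89935559-89935618, GRCh38), is the same in all 3 genes. It is shown because a read lying wholly within it cannot be assigned to 1 of them by its sequence.
TUBB3, TUBB2A and TUBB2B: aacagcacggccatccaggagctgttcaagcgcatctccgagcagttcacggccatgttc
AC092143.1 also overlaps 35.8% of the TUBB3 exons on the same strand. Genes on the opposite strand overlap 38.9% of the NEFM exons (AF106564.1), 11.3% of the NEFL exons and 8.8% of the NEFH exons. Whether counting used the strand is not given in the sources used here, so NEFM values in particular may hold reads of the overlapping gene.

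The 10 genes differed widely in level, and the 2 lines held different subsets of them. Per kilobase of exon, mean levels in untreated SK-N-AS ran from 45.4 ± 8.17 CPM per kb for TUBB3 and 14.1 ± 3.01 for STMN2 down to 0.632 ± 0.0428 for MAPT and 0.615 ± 0.320 for DCX (SD, n = 4). In untreated GIMEN, TUBB3 was at 118 ± 5.53 CPM per kb and MAP2 at 8.15 ± 0.149 (SD, n = 3). TUBB3 alone made up 53.5 to 68.9% of the members' summed level per kilobase in untreated SK-N-AS and 90.9 to 92.2% in untreated GIMEN. NEFL, NEFM, NEFH, INA, STMN2 and DCX were at the floor in both GIMEN groups.

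**Figure D1:**
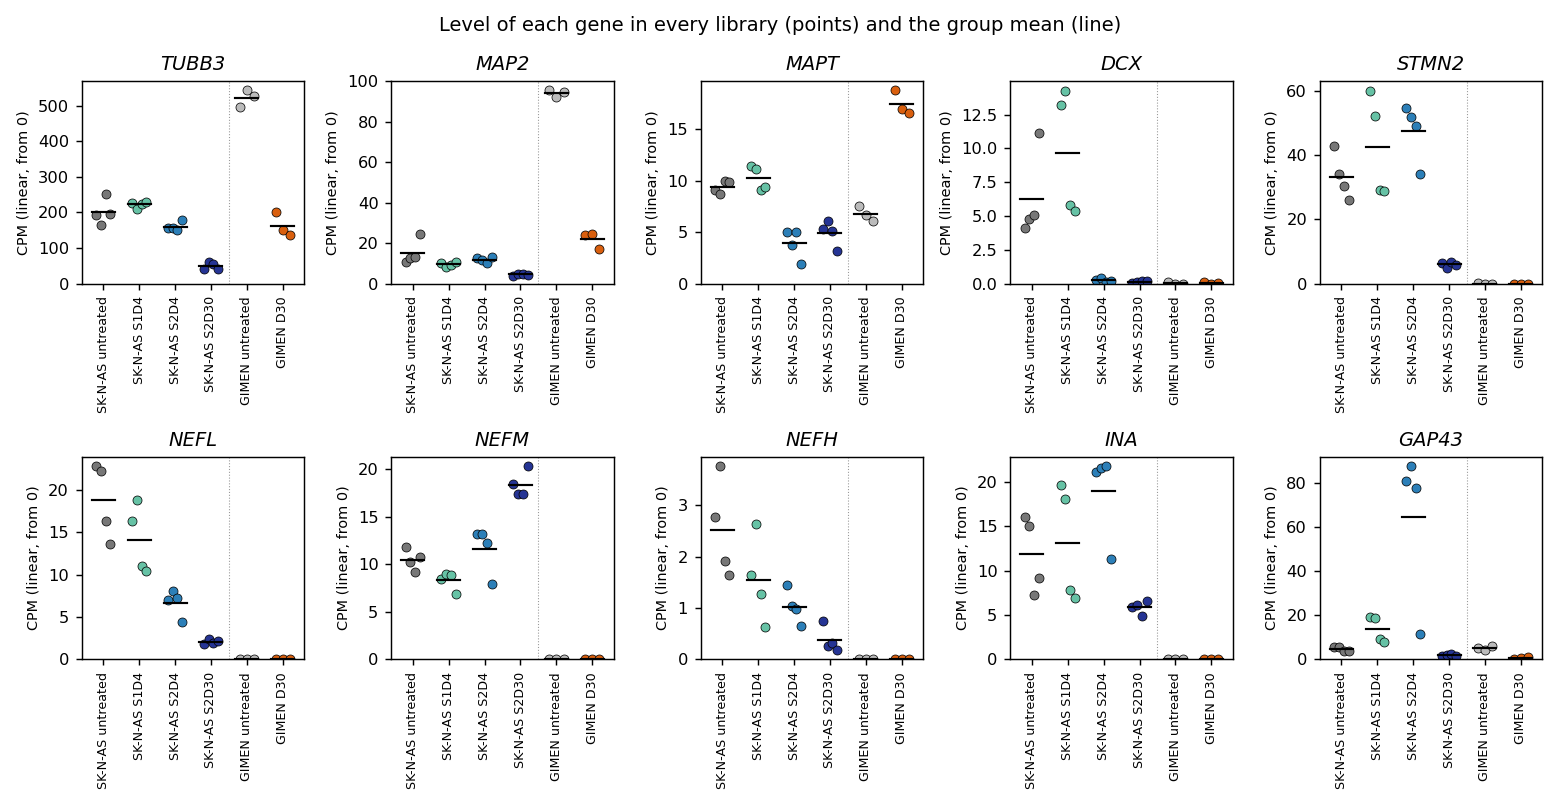
Level of each of the 10 genes in CPM (linear axis from 0) in every library of the 6 groups, with points for libraries and a line for the group mean. NEFL falls from 13.7 to 22.8 CPM in untreated SK-N-AS to 1.80 to 2.35 CPM at S2D30, and the 6 genes at the floor in GIMEN lie on the axis there.

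TUBB3 was lower after 30 days in both lines. It read 192, 165, 251 and 197 CPM in untreated SK-N-AS and 225, 210, 224 and 229 CPM at S1D4. It read 155, 155, 150 and 179 CPM at S2D4 and 41.9, 61.5, 55.0 and 40.5 CPM at S2D30. The S2D30 libraries lay below every other library of the line, whereas S1D4 and S2D4 each overlapped untreated cells. The fall at S2D30 was 4.15-fold (log2 fold change -2.05 ± 0.14, SE, edgeR adjusted p = 1.19e-09), and the change at S1D4 was 0.12 ± 0.13 (adjusted p = 0.527). At S2D4 TUBB3 was lower by -0.37 ± 0.13 (adjusted p = 0.0238), a call that was lost without untreated replicate 3 (adjusted p = 0.111) or without S2D4 replicate 1, 2 or 3 (0.0530, 0.0537 and 0.0605). With a term for replicates 3 and 4 of untreated and S1D4 the value was -0.27 (adjusted p = 0.112). In GIMEN the level went from 495, 544 and 527 CPM to 201, 150 and 138 CPM, with no overlap and a log2 fold change of -1.71 ± 0.12 (adjusted p = 1.46e-07). By mean level the order was untreated GIMEN, S1D4, untreated SK-N-AS, GIMEN D30, S2D4 and S2D30. The ranges of each neighbouring pair overlapped except at the top and at the bottom of that order.

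MAP2, the microtubule-associated protein of dendrites and cell bodies, followed TUBB3 at 30 days. It read 10.9, 12.6, 12.9 and 24.6 CPM in untreated SK-N-AS, 10.4, 8.38, 8.99 and 10.7 CPM at S1D4, and 12.5, 11.5, 10.2 and 12.9 CPM at S2D4. At S2D30 it read 3.99, 4.91, 4.89 and 4.30 CPM. Untreated replicate 4 was the highest library of the line, and the S2D30 libraries lay below all the others. MAP2 fell at S2D30 by 1.78 ± 0.21 on the log2 scale (adjusted p = 9.2e-07) and at S1D4 by 0.69 ± 0.20 (adjusted p = 0.0116). The change at S2D4 was -0.40 ± 0.20 (adjusted p = 0.0857). Without untreated replicate 4 the S1D4 value was -0.35 (adjusted p = 0.0386) and the S2D4 value -0.07 (adjusted p = 0.661). GIMEN held more MAP2, 95.5, 92.2 and 94.8 CPM untreated and 24.3, 24.6 and 16.9 CPM at D30, and the groups did not overlap. The log2 fold change there was -2.13 ± 0.11 (adjusted p = 1.57e-08). In order of level, untreated GIMEN was highest and S2D30 lowest, both apart from their neighbours, while GIMEN D30, untreated SK-N-AS, S2D4 and S1D4 overlapped in turn.

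MAPT, which encodes tau, the microtubule-associated protein of axons, moved in opposite directions in the 2 lines. It read 9.08, 8.70, 10.0 and 9.89 CPM in untreated SK-N-AS and 11.4, 11.1, 9.07 and 9.36 CPM at S1D4. It then read 5.03, 3.80, 5.04 and 1.91 CPM at S2D4 and 5.35, 6.04, 5.12 and 3.17 CPM at S2D30. Every library with both drugs lay below every library without bufalin in this line, and S2D4 and S2D30 overlapped each other. MAPT was lower by -1.30 ± 0.25 at S2D4 (adjusted p = 0.00024) and by -0.97 ± 0.24 at S2D30 (adjusted p = 0.00199), and its change at S1D4 was 0.09 ± 0.24 (adjusted p = 0.789). In GIMEN it went from 7.58, 6.68 and 6.05 CPM to 18.9, 17.0 and 16.6 CPM. All treated GIMEN libraries lay above all 19 other libraries, and the rise was 1.34 ± 0.12 on the log2 scale (adjusted p = 1.49e-06). By mean level the order was GIMEN D30, S1D4, untreated SK-N-AS, untreated GIMEN, S2D30 and S2D4, and the neighbours that overlapped were S1D4 with untreated SK-N-AS and S2D30 with S2D4.

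DCX, doublecortin, a microtubule-associated protein of migrating immature neurons, had the largest fall of the 10. It read 4.13, 4.77, 5.06 and 11.1 CPM in untreated SK-N-AS and 13.2, 14.3, 5.78 and 5.37 CPM at S1D4. With both drugs it was near the floor, with 6, 8, 3 and 6 counts at S2D4 and 1, 3, 4 and 4 counts at S2D30, against 106 to 365 counts in untreated cells. Untreated and S1D4 libraries overlapped, and both lay far above the S2D4 and S2D30 libraries. The fitted log2 fold change was -4.63 ± 0.48 at S2D4 (adjusted p = 3.93e-07) and -5.49 ± 0.53 at S2D30 (adjusted p = 8.74e-08). The difference between these time points was not called (-0.86 ± 0.70, adjusted p = 0.326). At S1D4 the value was 0.60 ± 0.36 (adjusted p = 0.200). Split by replicate number, which the labels do not give as pairs, replicates 1 and 2 gave a log2 ratio of 1.63. Replicates 3 and 4, which include the untreated library at 11.1 CPM, gave -0.54. Without untreated replicate 4 the S1D4 value was 1.03, with an adjusted p of 0.0231.

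STMN2, stathmin-2, a tubulin-binding protein of growth cones, was lower at the late time point of the SK-N-AS treatment. It read 42.8, 34, 30.3 and 26.0 CPM in untreated cells, 60.0, 52.2, 29 and 28.8 CPM at S1D4 and 54.6, 51.9, 48.9 and 34.1 CPM at S2D4. At S2D30 it read 6.54, 4.91, 6.75 and 5.74 CPM. The first 3 groups overlapped and the S2D30 libraries lay below them. The fall at S2D30 was 5.71-fold against untreated cells (log2 fold change -2.51 ± 0.25, adjusted p = 1.38e-07) and 7.90-fold against S2D4 (-2.98 ± 0.25, adjusted p = 8.12e-08). The values at S1D4 (0.32 ± 0.23, adjusted p = 0.283) and S2D4 (0.47 ± 0.23, adjusted p = 0.0835) were not called. Without S2D4 replicate 4 or untreated replicate 1, STMN2 was called higher at S2D4 (0.60 and 0.65, adjusted p = 0.0266 and 0.0296).

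The neurofilament subunits did not change together. NEFL, the light chain on which the filament assembles, read 22.8, 22.3, 16.3 and 13.7 CPM in untreated SK-N-AS and 16.4, 18.8, 11 and 10.5 CPM at S1D4. It read 6.99, 8.03, 7.30 and 4.44 CPM at S2D4 and 1.80, 2.35, 1.95 and 2.17 CPM at S2D30. Untreated and S1D4 libraries overlapped, all S2D4 libraries lay below them, and all S2D30 libraries lay lower still. NEFL fell by 1.53 ± 0.23 on the log2 scale at S2D4 (adjusted p = 2.14e-05) and by 3.22 ± 0.25 at S2D30 (adjusted p = 7.07e-09), and its S1D4 value was -0.44 ± 0.22 (adjusted p = 0.131).

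NEFM, the medium chain, was the member called higher at S2D30 in SK-N-AS. It read 11.8, 10.2, 9.21 and 10.7 CPM in untreated cells, 8.44, 8.99, 8.86 and 6.92 CPM at S1D4 and 13.2, 13.1, 12.2 and 7.88 CPM at S2D4. At S2D30 it read 18.5, 17.4, 17.4 and 20.3 CPM, above every other library. The rise was 1.71-fold (log2 fold change 0.77 ± 0.15, adjusted p = 2.44e-04). S1D4 libraries all lay below untreated ones, with a value of -0.36 ± 0.15 that was not called (adjusted p = 0.0700), and S2D4 overlapped untreated cells (0.11 ± 0.15, adjusted p = 0.558). The level of NEFM relative to NEFL, each per kilobase, was 0.574 ± 0.141 in untreated cells, 0.608 ± 0.149 at S1D4, 1.72 ± 0.111 at S2D4 and 8.86 ± 1.18 at S2D30 (SD, n = 4). The S2D4 and S2D30 libraries did not overlap in this ratio with each other or with the earlier groups.

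NEFH, the heavy chain, was the least abundant neurofilament gene. It read 2.77, 3.76, 1.91 and 1.65 CPM in untreated cells, 1.65, 2.64, 1.27 and 0.621 CPM at S1D4, 1.44, 1.03, 0.988 and 0.648 CPM at S2D4, and 0.746, 0.256, 0.317 and 0.174 CPM at S2D30. The last group rested on 4 to 17 counts a library, and it overlapped S2D4 but not untreated cells. NEFH fell by 2.77 ± 0.49 on the log2 scale at S2D30 (adjusted p = 7.84e-05) and by 1.34 ± 0.44 at S2D4 (adjusted p = 0.0134), where the adjusted p was 0.0506 without untreated replicate 2. INA, alpha-internexin, an intermediate filament protein that joins the neurofilament of young neurons, read 16, 15, 7.30 and 9.22 CPM untreated and 19.6, 18.0, 7.85 and 6.96 CPM at S1D4. It read 21.1, 21.6, 21.7 and 11.3 CPM at S2D4 and 5.88, 6.09, 4.85 and 6.60 CPM at S2D30. Replicates 1 and 2 were above replicates 3 and 4 in both of the first groups, S2D4 overlapped them, and S2D30 lay below all. INA fell by 1.06 ± 0.34 at S2D30 (adjusted p = 0.0105), and its values of 0.11 ± 0.33 at S1D4 and 0.63 ± 0.33 at S2D4 were not called (adjusted p = 0.823 and 0.106). Without S2D4 replicate 4 the S2D4 value was 0.81 (adjusted p = 0.0329).

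GAP43, a growth cone membrane protein and protein kinase C substrate, rose and then fell along the SK-N-AS treatment. It read 5.69, 5.64, 3.77 and 3.88 CPM in untreated cells, 19.2, 18.9, 9.37 and 7.98 CPM at S1D4, 80.7, 87.5, 77.8 and 11.3 CPM at S2D4, and 1.58, 2.10, 2.36 and 1.48 CPM at S2D30. All S1D4 and S2D4 libraries lay above all untreated libraries, and all S2D30 libraries lay below them. S2D4 replicate 4 lay within the S1D4 range. The rise was 2.86-fold at S1D4 (log2 fold change 1.51 ± 0.46, adjusted p = 0.0157) and 13.2-fold at S2D4 (3.72 ± 0.49, adjusted p = 5.2e-06). Across all alternatives the S2D4 value ran from 3.32 to 4.07, the highest without S2D4 replicate 4. The S2D30 value was -1.38 ± 0.52 (adjusted p = 0.026), and this call was lost without untreated replicate 1 (adjusted p = 0.0664) or 2 (0.0538) or S2D30 replicate 1 (0.0606) or 4 (0.0644). Between S2D4 and S2D30 the fall was 34.3-fold (-5.10 ± 0.54, adjusted p = 9.03e-07). In GIMEN GAP43 went from 5.06, 4.08 and 5.82 CPM to 0.176, 0.508 and 1.09 CPM, the latter from 3 to 17 counts, with no overlap. The log2 fold change there was -3.11 ± 0.41 (adjusted p = 3.35e-05). From the highest mean level the groups ranked S2D4, S1D4, untreated GIMEN, untreated SK-N-AS, S2D30 and GIMEN D30. The neighbours that overlapped were S2D4 with S1D4, and the untreated groups with each other.

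**Figure D2:**
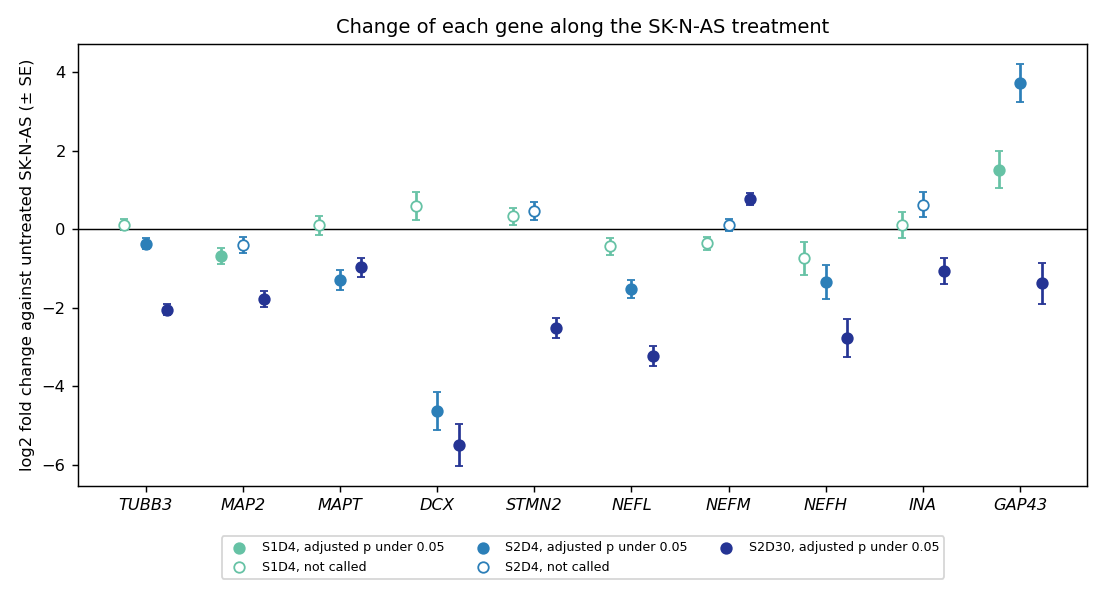
Log2 fold change against untreated SK-N-AS with its standard error for the 10 genes at S1D4, S2D4 and S2D30; filled points have an adjusted p under 0.05. GAP43 goes from 3.72 at S2D4 to -1.38 at S2D30, and NEFM is the filled point above 0 at S2D30.

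Read over the 10 genes, the SK-N-AS stages differed in how many members were called and in which direction. At S1D4, 1 was higher (GAP43), 1 was lower (MAP2) and 8 were not called, where 17.6% of all 15810 genes tested were higher and 22.4% lower (40.1% in either direction). The groups did not overlap for 3 members, beside 38.3% of all genes. At S2D4 against untreated cells, 1 was higher (GAP43) and 5 were lower (TUBB3, MAPT, DCX, NEFL and NEFH), against 30.9% and 32.2% of all genes (63.1% in either direction). The groups did not overlap for 5 members and for 51.2% of all genes. At S2D30, 1 was higher (NEFM) and the other 9 were lower, against 33.8% and 36.5% of all genes (70.3% in either direction). None of the 10 overlapped untreated cells at S2D30, which held for 66.4% of all genes. The median log2 fold change of the members was 0.10, -0.39 and -1.92 at the 3 stages, and that of all genes was -0.01, -0.02 and -0.03. These 3 comparisons share the untreated libraries.

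More members were lower in the step from S2D4 to S2D30 than in the step before it. From S1D4 to S2D4, 2 members were higher (GAP43 and NEFM, 2.20 and 0.47 on the log2 scale) and 4 were lower (TUBB3, NEFL, MAPT and DCX, -0.49, -1.10, -1.39 and -5.23). Of all genes 28.3% were higher and 26.8% lower in that step (55.1% in either direction), and groups did not overlap for 4 members and for 49.5% of all genes. The NEFM call was lost without S1D4 replicate 4 (adjusted p = 0.0558) or S2D4 replicate 1 or 2 (0.0535 and 0.0506). From S2D4 to S2D30, 1 member was higher (NEFM, 0.66) and 7 were lower (MAP2, TUBB3, NEFL, NEFH, INA, STMN2 and GAP43), against 24.4% and 26.9% of all genes (51.3% in either direction). The groups did not overlap for 7 members, beside 50.3% of all genes. The falls ran from -1.38 for MAP2 to -5.10 for GAP43, and MAPT (0.33 ± 0.25) and DCX were not called. The NEFH call of this step was lost without S2D4 replicate 1 or S2D30 replicate 2, 3 or 4 (adjusted p = 0.0740, 0.0665, 0.0604 and 0.0782).

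The summed level of the members was 314 ± 27.4 CPM in untreated cells, 345 ± 35.3 CPM at S1D4, 326 ± 42.3 CPM at S2D4 and 93.8 ± 10.1 CPM at S2D30 (SD, n = 4). This sum follows the most abundant genes and hides opposite changes. Between untreated cells and S2D4 the mean of GAP43 rose from 4.74 to 64.3 CPM while that of TUBB3 went from 201 to 160 CPM. The adrenergic sum was 1393 to 1615 CPM at S1D4, 534 to 827 CPM at S2D4 and 213 to 259 CPM at S2D30. The mesenchymal sum was 372 to 429, 958 to 1167 and 870 to 964 CPM at the same stages. At S2D30, 9 of the 10 adrenergic markers were lower, with a median log2 fold change of -3.01. Of the 10 mesenchymal markers 8 were higher and 2 lower at that stage. Of all genes 33.8% were higher and 36.5% lower there. The share of counts from mitochondrial genes was 5.47 to 12.4% in untreated cells and 3.34 to 5.53% at S2D30. The part of these shifts in the members' changes was not tested.

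In GIMEN, 6 of the 10 genes could not be followed. Of the 4 that passed the filter on low counts, MAPT was higher and TUBB3, MAP2 and GAP43 were lower at D30, where 35.5% of the 13517 genes tested were higher and 36% lower (71.4% in either direction). The groups did not overlap for any of these 4 genes, as for 75.4% of all genes. The other six had between 0 and 2 counts in each GIMEN library, which for a library at 0 allows up to 3 counts, at most 0.193 CPM, by counting error alone. The adrenergic sum went from 451 to 474 CPM to 245 to 293 CPM and the mesenchymal sum from 32250 to 34160 CPM to 18630 to 20920 CPM. Of the adrenergic markers 4 were tested, of which 2 were lower. Of the 10 mesenchymal markers 7 were lower and 2 higher. The leukocyte sum went from 88.8 to 99.8 CPM to 175 to 407 CPM, most of it CD68, and the Schwann and glial sum from 6.14 to 7.35 CPM to 1.90 to 3.70 CPM. The part of these markers in the 4 changes was not tested.

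Untreated GIMEN and SK-N-AS cells differed in 9 of the 10 genes, where 35.3% of the 16246 genes tested were higher in GIMEN and 38.6% lower (73.9% in either direction). MAP2 was 6.26-fold (log2 difference 2.65 ± 0.20, adjusted p = 2.62e-09) and TUBB3 2.62-fold higher in GIMEN (1.39 ± 0.16, adjusted p = 5.08e-07). The groups did not overlap for 9 genes, beside 71.7% of all genes. Against the floor in GIMEN, untreated SK-N-AS levels were at least 212-fold higher for STMN2, 119-fold for NEFL, 75.6-fold for INA, 66.7-fold for NEFM, 39.9-fold for DCX and 16-fold for NEFH. MAPT was lower in GIMEN by -0.46 ± 0.17 (adjusted p = 0.0217), a call lost without untreated GIMEN replicate 2 or 3 (adjusted p = 0.0675 and 0.106) and in the model of all 22 libraries (-0.48, adjusted p = 0.0767). GAP43 was at similar levels, with a difference of 0.08 and a 95% interval from -0.55 to 0.71. The lines were grown in different media, which cannot be told apart from the line.

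The 30-day change itself differed between the lines for MAPT and GAP43 among the 4 genes with counts in both. The difference, GIMEN minus SK-N-AS, was 2.33 ± 0.24 for MAPT (adjusted p = 5.39e-07), and 25.2% of all genes were called in that direction. For GAP43 it was -1.71 ± 0.51 (adjusted p = 0.00985), beside 24.5% of all genes in that direction and 49.7% in either. In a model of all 22 libraries, the GAP43 difference was -1.74 with an adjusted p of 0.126. TUBB3 (0.36, 95% interval from -0.12 to 0.84) and MAP2 (-0.33, from -0.97 to 0.31) were not called. Without untreated SK-N-AS replicate 4 the MAP2 difference was -0.65 (adjusted p = 0.00373). Doses, media and the PP121 stage that precedes bufalin in SK-N-AS also differed between the lines.

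**Figure D3:**
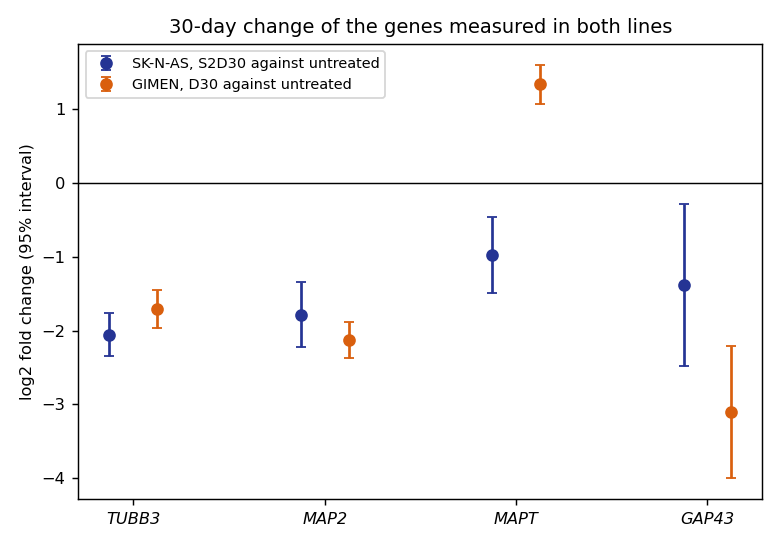
Log2 fold change after 30 days, with its 95% interval, for the 4 genes with counts in both lines. MAPT lies on opposite sides of 0, at -0.97 in SK-N-AS and 1.34 in GIMEN, while TUBB3, MAP2 and GAP43 are below 0 in both.

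Profiles over the 16 SK-N-AS libraries were compared as the root mean square difference of mean-centred log2 CPM, as a description over libraries that share treatment groups. Among the members the closest pair was MAP2 and TUBB3, at 0.486. Among 13528 other genes, the closest were HAND2 for TUBB3 (0.132), PSMD2 for NEFM (0.149), AUTS2 for MAP2 (0.152), LGALS8 for INA (0.218), SRD5A3 for MAPT (0.236), MMP23B for NEFL (0.282) and APLP1 for STMN2 (0.311). HAND2, one of the adrenergic markers, went from 578 ± 19.4 to 143 ± 18.5 CPM between untreated cells and S2D30 (SD, n = 4). NEFH, DCX and GAP43 had no gene as near, with C1orf53 (0.450), TMOD1 (0.639) and SCG3 (0.728) the closest. The measure grows with the range of a profile, which was 3.95 for NEFH, 6.83 for DCX and 5.81 for GAP43. For the other members the range was 1.53 (NEFM) to 3.65 (NEFL) on the log2 scale.

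Other genes of the same structures were read from 6 lists, beside 33.8% of all genes higher and 36.5% lower at S2D30. At that stage, 8 of 10 other tubulin genes were lower and 1 was higher, with a median log2 fold change of -1.02. TUBA1A, the alpha tubulin of young neurons, went from 991 ± 174 to 110 ± 13.8 CPM (-3.21 ± 0.14, adjusted p = 5.09e-12), and TUBA4A went from 1.23 ± 0.336 to 10.4 ± 1.06 CPM. Of 16 other microtubule-associated genes, 12 were lower and 2 higher, with a median of -1.60. The 2 higher became 1 without untreated replicate 1, 2 or 3 or S2D30 replicate 2. DPYSL5, a collapsin response mediator, went from 97.4 ± 8.69 to 0.913 ± 0.135 CPM (-6.76 ± 0.25). The doublecortin-like kinase DCLK1 went the other way, from 9.42 ± 1.05 to 48.0 ± 0.599 CPM (2.31 ± 0.18). The tubulin and microtubule-associated lists held mostly genes that were lower, as the members did. Lists and members were chosen with earlier results of these data known, so this is a description and not separate evidence.

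Of 10 other intermediate filament genes tested at S2D30, 5 were lower and 2 higher (median -0.27), and 3 were lower where a mean of at least 10 counts was required. Vimentin, VIM, the filament of mesenchymal and immature cells, rose from 937 ± 243 to 2862 ± 316 CPM, and nestin, NES, fell from 559 ± 104 to 293 ± 0.853 CPM. Of 13 growth cone and axon membrane genes, 8 were lower and 2 higher (median -0.47). BASP1, a growth cone protein related in function to GAP43, rose from 68.5 ± 1.35 to 139 ± 18.1 CPM while MARCKSL1, another membrane-bound protein kinase C substrate, fell from 510 ± 43.6 to 48.3 ± 7.62 CPM. Of 18 axonal transport and axon initial segment genes, 8 were lower and 5 higher (median -0.16), with the kinesin gene KIF5A at 0.98 and the ankyrin gene ANK2 at -2.46. With a log2 fold change of 1 or more required, 4 of these genes were lower and 1 was higher. Of 14 neuronal RNA regulators, 8 were lower and 1 higher (median -0.76). That 1 was REST, held in the list as the DNA-binding repressor of neuronal genes, at 30.6 ± 5.29 and 67.7 ± 2.47 CPM. The splicing factor gene CELF3 went from 75.8 ± 4.75 to 0.841 ± 0.122 CPM.

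In GIMEN at D30, beside 35.5% of all genes higher and 36% lower, 8 of 9 other tubulin genes tested were lower and 1 was higher (median -0.96), with TUBA1B, a widely expressed alpha tubulin, at 3130 ± 104 and 714 ± 29.2 CPM (SD, n = 3). Of 11 other microtubule-associated genes, 8 were lower and 1 was higher (median -0.57). DCLK1 went from 37.8 ± 2.50 to 1.22 ± 0.236 CPM (-4.97 ± 0.14), opposite in sign to SK-N-AS, and MAP1A rose from 187 ± 10.3 to 394 ± 20.7 CPM. Of 10 growth cone and axon membrane genes, 8 were lower and 1 higher (median -1.42), including CAP2 at -2.03. The axonal transport and axon initial segment list had 11 of 16 genes higher and 2 lower (median 0.44), but 1 higher where a log2 fold change of 1 or more was required. KIF5A was at 0.90 and ANK3, the ankyrin of the axon initial segment, at -3.51. Among 10 other intermediate filament genes, 4 were higher and 3 lower (median 0.09). The 4 higher became 2 with DESeq2 or without untreated replicate 1 or 3 or D30 replicate 2, and 1 without untreated replicate 2. This list had KRT18 at -1.76 and SYNM at 0.24, a call lost without untreated GIMEN replicate 2 (adjusted p = 0.0544). Of 7 neuronal RNA regulators, 4 were lower and 1 higher (median -0.62), the latter lost without untreated replicate 1 or 2 or D30 replicate 2 or 3, and ELAVL2, an RNA-binding protein of neurons, went from 17.0 ± 0.831 to 2.37 ± 0.260 CPM. The median over all genes tested in GIMEN was 0.02.

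**Figure D4:**
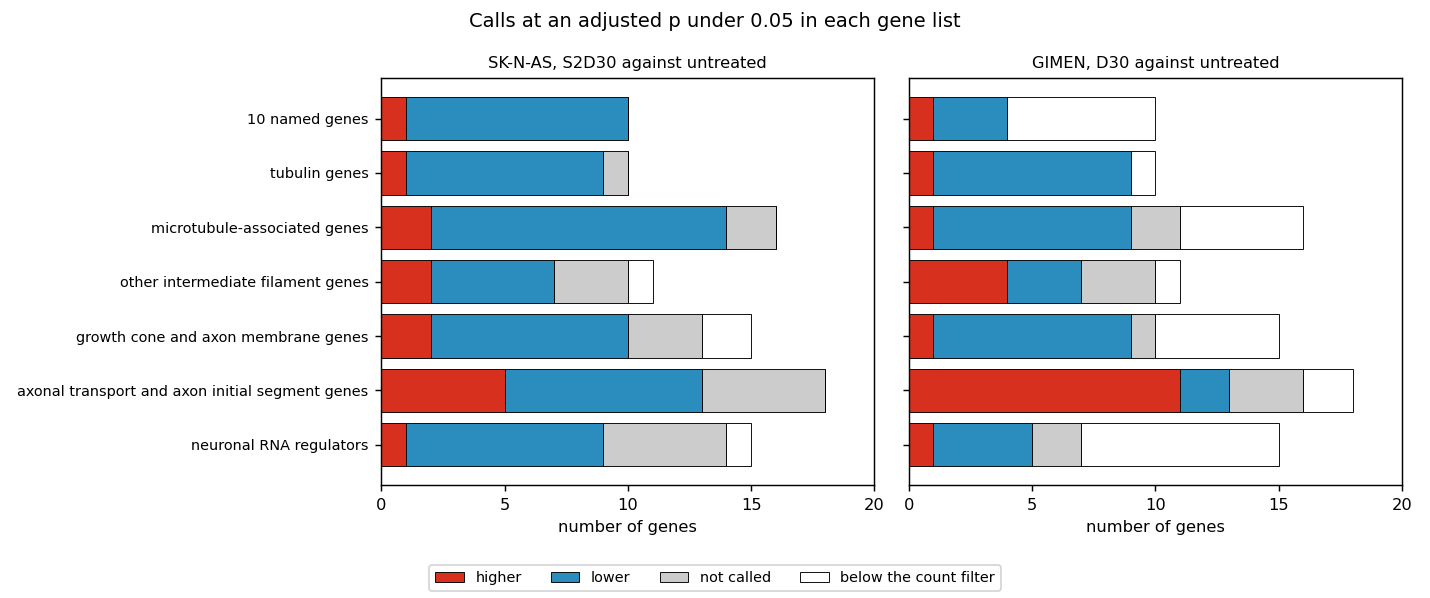
Number of genes in each list called higher, called lower, not called or below the filter on low counts after 30 days, in SK-N-AS (left) and GIMEN (right). The axonal transport and axon initial segment list has 11 genes higher in GIMEN and 5 in SK-N-AS, and the top bar holds the 10 members. With a log2 fold change of 1 or more required, 1 gene of that list is higher in each line.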

How the data were processed

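RNA of 22 samples was measured by RNA-seq. The authors deposited 1 table of counts by gene symbol, whole numbers with no normalization as the values show. The aligner, genome build, annotation and strand setting are not given in the sources used here. Total counts per library set the precision. Reads carry no molecular identifiers, so floors cover counting error only.

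Counts were tested in R 4.3.3 with edgeR 4.0.16 (filterByExpr with a minimum count of 10 and a minimum total of 15, TMM, glmQLFit and glmQLFTest). The Benjamini-Hochberg adjustment ran over every gene tested in a model, and an adjusted p under 0.05 was a call. One model held the 16 SK-N-AS libraries, another the 6 GIMEN libraries, and the last the 14 untreated and 30-day libraries for comparisons between lines. SE is that of the fitted log2 fold change. Exon lengths and overlaps are from GENCODE 29 (GRCh38), and symbols were used as deposited. Models were also run on simulated counts. The simulation had the same spread for all genes and no outlying library, and no result here rests on it. DESeq2 1.42.0, other scalings, filters, a replicate block and leaving out each library were alternatives.

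The members, the 6 lists of other genes and the 4 marker lists were chosen with earlier results of these data known. From each list the rule names the largest rise and largest fall at 30 days in each line, among called genes with non-overlapping groups and at least 10 CPM in either group. For each member it also names the gene with the most similar profile (prior count 2). Replicates were compared pairwise and no 2 libraries held identical values. The value of 1 marker gene is not reported here.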

Additional observations from a re-analysis of the deposited data

Results flagged for a closer look

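A library far from the others of its group was found in 5 of 40 group values examined, where chance flags about 1 in 20 groups. Untreated SK-N-AS replicate 4 had MAP2 at 24.6 CPM against 10.9 to 12.9 CPM, and DCX at 11.1 CPM against 4.13 to 5.06 CPM, in the other 3 libraries. S2D4 replicate 4 had GAP43 at 11.3 CPM against 77.8 to 87.5 CPM, INA at 11.3 CPM against 21.1 to 21.7 CPM, and TUBB3 at 179 CPM against 150 to 155 CPM. The same library held 34292076 counts, against 18793711 in the smallest of its group, and the part of depth in these values was not tested.

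The 30-day change differed between the lines, by a test of the difference itself, for MAPT (2.33, GIMEN minus SK-N-AS on the log2 scale) and for GAP43 (-1.71). MAPT kept its call under every alternative. The GAP43 call was lost in the edgeR model of all 22 libraries (-1.74, adjusted p = 0.126).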

How the results depend on the processing

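Of 1029 values of single members under the alternatives, 975 kept their direction and side of the threshold, 32 lost the call, 13 gained it and 9 turned direction. With a log2 fold change of 1 or more in size required, members called lower at S1D4 went to 0, higher at S2D30 to 0, higher from S1D4 to S2D4 to 1 and higher from S2D4 to S2D30 to 0, by construction. The same requirement cut the genes lower at S2D30 from 8 to 5 in the tubulin, growth cone and RNA regulator lists. In GIMEN it cut the tubulin and microtubule-associated genes lower from 8 to 4. At least 11 microtubule-associated genes stayed lower at S2D30, and at least 7 growth cone genes in GIMEN. Of all genes 3038 of 15810 were then lower at S2D30 and 1738 of 13517 in GIMEN. From S1D4 to S2D4, members called higher were also 1 with upper-quartile scaling, with a term for replicates 3 and 4 of untreated and S1D4, and in a model of the compared groups, and that term gave 2 lower at S1D4. In the model of all 22 libraries the 30-day difference had 0 lower. Leaving out 1 library, members called higher ranged from 1 to 2 at S1D4, from 1 to 3 at S2D4 and from 1 to 2 from S1D4 to S2D4. Members lower in the 30-day difference ranged from 1 to 2. Directions turned only where values were near 0 and not called: INA at S1D4 (-0.15 to 0.32 leaving out 1 library, with -0.06, -0.15 and -0.08 without untreated replicate 3 and S1D4 replicates 1 and 2), STMN2 from S1D4 to S2D4 (-0.14 with the replicate term, and 0.00 to 0.36 leaving out 1 library), and GAP43 between untreated lines (-0.07 with upper-quartile scaling, and -0.03 to 0.22 leaving out 1 library, with -0.01, -0.03 and -0.03 without untreated SK-N-AS replicates 3 and 4 and GIMEN replicate 3). Except where stated, the cause was not tested.

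Same-numbered libraries did not deviate together in every pair. Their correlations were 0.033 to 0.311 for S1D4 with untreated cells, where 3 of 4 libraries correlated best with their own number. In the other comparisons they were -0.106 to 0.108. The labels name no shared batch, so the numbers were not taken as pairs. At S1D4 replicates 1 and 2, and 3 and 4, differed least (chi-square per gene of 7.13 and 3.23, against 26.2 to 29.8 for the other pairs), which did not hold in untreated cells (51 and 55.7, against 28.5 for replicates 1 and 3). A replicate block gave 3 members lower at S1D4 (adding NEFL and NEFH, adjusted p = 0.0378 and 0.0463) and 3 higher at S2D4 (adding INA and STMN2, 0.0311 and 0.0202).

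Depth limits NEFH and DCX at S2D30, and no change was measurable for the 6 genes at the floor in GIMEN.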
